A study of Mus musculus with 4 samples.

Results

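The 10 genes described here mark the ectoderm of the limb bud and its apical ectodermal ridge: Trp63, Sp6, Sp8, Dlx5, Dlx6, Grhl3, Tfap2a, Epcam, Krt5 and Krt14. They were chosen by name from the 21938 protein-coding genes of the annotation, by a rule that uses no measured value, although earlier results of these data were known. All ATAC-seq peaks that overlapped a gene body or the 50 kb on either side of it were collected (mm10 coordinates, GENCODE M21 genes). The windows of Dlx5 and Dlx6 overlap, which left 9 windows that together cover 1224.9 kb. They held 56 of the 44692 regions obtained when overlapping peaks of the 4 libraries were merged.

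The study asked how chromatin accessibility in the limb bud responds to Sonic hedgehog (SHH), and compared 2 wild type (WT) with 2 Shh-/- embryos. All embryos were at E10.5 with 35 somites. Both genotypes were on a Swiss Webster background, and the mutant embryos carried a null allele of Shh. Each library was made from 5000 cells of the posterior forelimb buds of 1 embryo. The study's methods describe dissociation of buds with an enzyme for other assays and do not name it for ATAC-seq. Neither the labels nor the methods mention a step that removed the ectoderm or sorted the cells.

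The ectoderm is a thin epithelial sheet around a core of mesenchyme, and its thickened rim, the apical ectodermal ridge, secretes FGFs that keep the underlying mesenchyme growing. SHH from the posterior mesenchyme and FGFs from the ridge maintain each other. The transcription factor p63, encoded by Trp63, is needed for the ridge and for all stratified epithelia, and SP6 and SP8 act in the limb ectoderm and the ridge. Not all members are private to the ectoderm, since Tfap2a and Dlx5 are also known to be expressed in limb mesenchyme. The question put to the peak lists was whether genes of this minority of cells could be seen in them at all. In bulk samples such as these, fewer cells of a type and less accessible DNA per cell cannot be told apart.

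The 4 lists differed greatly in length. The WT lists held 39080 and 11973 peaks and the Shh-/- lists 5589 and 18459 (here and below, paired values are for replicate 1 and then replicate 2 of a genotype, and runs of 4 values are for the WT and then the Shh-/- libraries). The lists hold no read counts, so the reads behind each call are not known from the files, and DNA without a called peak need not be closed. Within a list, peaks were ordered by the deposited score. A percentile of 100 would be the top of the list, and tied scores share a percentile. A rank of 1 is the highest score, and tied scores are ranked by chromosome and position. Shh-/- replicate 1 stood apart, because its list is the shortest and held no promoter or distal peak of any of the 10 genes, so each comparison of genotypes below is also given without it. Shh itself, the targeted gene, had 2 and 0 peaks in its body in the WT libraries and 0 and 2 in the Shh-/- libraries. None of them lay over an exon, so these lists do not check the genotype.

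Of the 31 regions away from promoters, none was called in all 4 libraries, where 1.73% of all distal regions were. Calls in 3 libraries were found for 3 of them (9.68%), against 4.86% of all distal regions. Those 3 lie downstream of Sp8, in an intron of Grhl3 and upstream of Epcam. They are printed here because they were called in more libraries than the other distal regions around these genes. Each line gives the 200 bases around the summit of the highest peak, here that of WT replicate 1, read 5′ to 3′ on the plus strand of mm10. Regions join overlapping peaks, so the peaks of other libraries need not cover these bases. At Grhl3 the WT replicate 2 peak (chr4:135570675-135571130) lies outside the stretch. At Epcam the peaks of WT replicate 2 (chr17:87613469-87613676) and Shh-/- replicate 2 (chr17:87613494-87613742) end before the summit. Capitals mark a match to the TFAP2 motif GCCNNNGGC, where N is any base.
Sp8 downstream, chr12:118855093-118855292: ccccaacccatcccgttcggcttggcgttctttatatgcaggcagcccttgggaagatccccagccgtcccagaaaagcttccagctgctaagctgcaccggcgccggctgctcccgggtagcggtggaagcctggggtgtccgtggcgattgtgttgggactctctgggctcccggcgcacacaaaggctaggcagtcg
Grhl3 intron, chr4:135570332-135570531: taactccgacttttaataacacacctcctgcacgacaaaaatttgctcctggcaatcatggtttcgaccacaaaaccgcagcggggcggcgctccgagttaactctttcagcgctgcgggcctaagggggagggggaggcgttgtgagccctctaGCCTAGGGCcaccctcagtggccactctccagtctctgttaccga
Epcam upstream, chr17:87613655-87613854: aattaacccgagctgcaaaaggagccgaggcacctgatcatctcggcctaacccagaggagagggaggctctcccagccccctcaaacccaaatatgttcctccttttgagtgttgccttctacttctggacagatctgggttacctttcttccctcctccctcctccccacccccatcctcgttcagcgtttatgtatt
The 3 stretches had a GC content of 64.0%, 57.0% and 53.5%. The TFAP2 match in the Grhl3 intron covers bases 156 to 164 of the stretch, and the stretches of Sp8 and Epcam held none of the motifs searched.

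Peaks were called around the ectodermal genes in every library, in very uneven numbers. The windows held 48 and 9 peaks in the WT libraries and 2 and 22 in the Shh-/- libraries. Set against the length of each list, these were 1.23, 0.752, 0.358 and 1.19 peaks per 1000. Per Mb of the windows there were 39.2, 7.35, 1.63 and 18.0 peaks, against 14.3, 4.39, 2.05 and 6.77 per Mb of the genome. Peaks at promoters of neighbouring genes made up 13, 3, 2 and 8 of the counts. The 2 peaks of Shh-/- replicate 1 both lay at promoters of neighbouring genes, among them Sp2 beside Sp6. Peaks were divided into those at a gene's own promoter (from 2 kb before to 1 kb after a transcription start site, TSS), those at the promoter of another gene, and distal peaks. Own promoter peaks numbered 8, 2, 0 and 6, and distal peaks numbered 27, 4, 0 and 8.

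**Figure D1:**
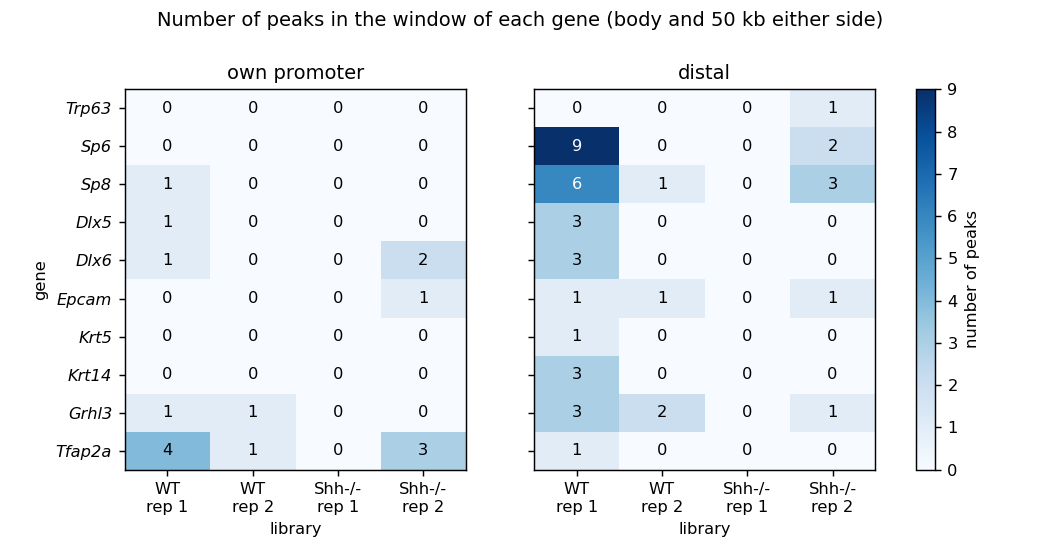
Number of peaks at the own promoter (left) and of distal peaks (right) in the window of each gene, by library (columns), with darker blue for more peaks. The window of Sp6 held most distal peaks, with 9 in WT replicate 1, Tfap2a had most own promoter peaks, with 4 in that library, and the Shh-/- replicate 1 column is at 0 for every gene. Distal peaks in the overlap of the windows of Dlx5 and Dlx6 are counted for both genes.

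A peak at the own promoter was called for 5 of the 10 genes in WT replicate 1, against 60.4% of all protein-coding genes. WT replicate 2 had 2 of 10 (39.2% of all genes), Shh-/- replicate 1 had 0 (17.3%) and Shh-/- replicate 2 had 3 (51.3%). Over the 4 lists together, 6 of the 10 genes had one, all but Trp63, Sp6, Krt5 and Krt14, beside 62.1% of all genes. In all 4 libraries the share among the ectodermal genes was thus below that among all genes. Promoters rich in CpG are often open in every cell type, and 4 of the 10 genes (Sp6, Dlx5, Epcam and Tfap2a) have a TSS with a CpG-rich promoter, against 49.8% of all genes. In WT replicate 1 a promoter peak was called for 2 of these 4 genes, where 92.8% of all CpG-rich genes had one. Of the other 6 genes, 3 had one (Sp8, Dlx6 and Grhl3), where 28.3% of all genes without a CpG-rich promoter did. In Shh-/- replicate 2 the counts were 2 of 4, beside 84.5%, and 1 of 6, beside 18.4%. In WT replicate 2 they were 1 of 4, beside 66.3%, and 1 of 6, beside 12.5%, and in Shh-/- replicate 1 they were 0 and 0, beside 29.5% and 5.16%.

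In each list that had own promoter peaks of the 10 genes, their median percentile lay below that of all promoter peaks. Own promoter peaks had median percentiles of 62.5 and 38.2 in the WT libraries and 17.0 in Shh-/- replicate 2. The medians over all promoter peaks of these lists were 73.1, 61.9 and 62.0. The peaks at promoters of neighbouring genes had medians of 63, 61.9, 84.6 and 51.1 in the 4 libraries, and include the strongest calls in the windows. Sp2, which encodes a broadly expressed relative of SP6 and SP8, had a promoter peak in all 4 lists at chr11:96977088-96978539, with percentiles of 99.7, 98.5, 98.8 and 99.5. Of the 56 regions, 2 were called in all 4 libraries (7.97% of all regions were), and neither lies at the promoter of one of the 10 genes.

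**Figure D2:**
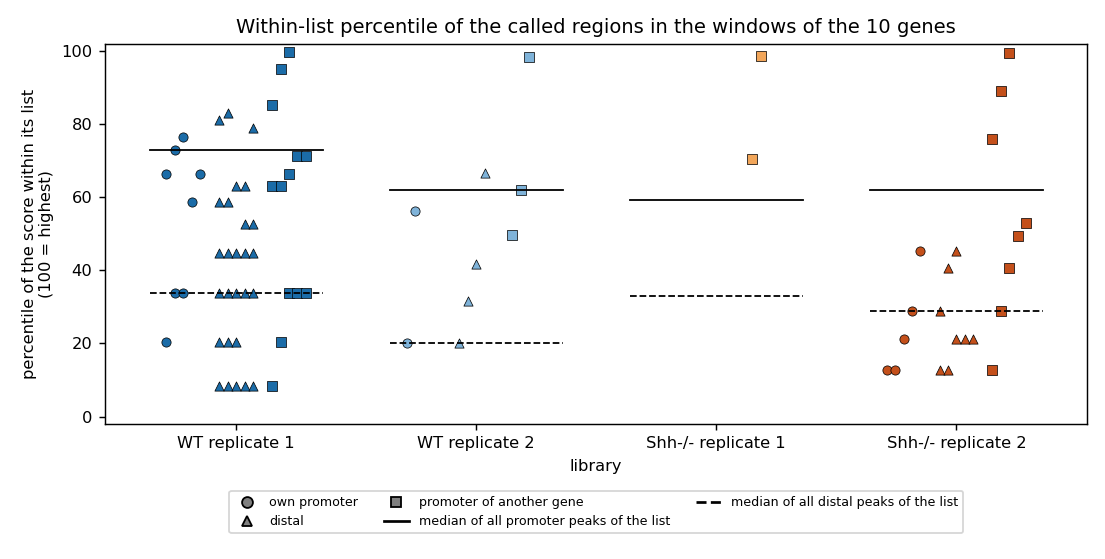
Within-list percentile of the score (vertical axis, 100 is the highest) for each region in the windows of the 10 genes, by library. Circles are own promoters, triangles distal regions and squares promoters of other genes, spread sideways for legibility, with the median of all promoter peaks (solid line) and of all distal peaks (dashed line) of the list. Most own promoter circles lie under the solid line, and the highest points of every library are squares.

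Trp63 is the central regulator among these genes and had the fewest calls. Its window of 308.3 kb (chr16:25683763-25892102 with the 50 kb on either side) held no peak in either WT library or in Shh-/- replicate 1, and 1 peak in Shh-/- replicate 2. For comparison, 80.3%, 66.9%, 43.9% and 75.0% of all protein-coding genes had a peak in their window in these libraries. The single peak, chr16:25675591-25675948, lies between genes 8.05 kb before the first TSS and ranked 14282 in its list, at the 21.3rd percentile. No library had a peak at the TSS of the long (TA) isoforms or at the internal TSS of the short (DeltaN) isoforms, the form known to predominate in epithelia. The nearest peak to the internal TSS, at position 25801916, was 239 and 240 kb away in the WT libraries and 240 and 126 kb away in the Shh-/- libraries.

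Sp6 and Sp8 encode related zinc finger factors that act together in forming the ridge. Sp8 (chr12:118846329-118852576) had one of the fullest sets of calls. A peak that starts 0.241 kb after its TSS, chr12:118846570-118847807, was called only in WT replicate 1, at rank 9070 and the 76.4th percentile. The downstream region printed above, chr12:118854858-118855385, lies 8.86 kb after the TSS. Its ranks were 6511 and 3846 in the WT libraries (83.1st and 66.7th percentiles) and 10698 in Shh-/- replicate 2 (40.7th), and Shh-/- replicate 1 lacked it. It was the highest distal peak around any of the 10 genes in both WT lists. An upstream region 9.54 kb before the TSS, chr12:118836560-118837142, was called in WT replicate 1 (78.9th percentile) and in Shh-/- replicate 2 (45.2nd), where it was the highest distal peak of the set. Another region, in an exon 2.42 kb after the TSS, was called in the same pair of libraries, at percentiles of 52.8 and 21.3.

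Sp6 (chr11:97013394-97024734) had no peak at either of its TSSs in any library, although its window was the fullest of all. The WT libraries had 17 and 1 peaks there and the Shh-/- libraries 1 and 6. Of these, 8, 1, 1 and 4 lay at promoters of other genes, among them Sp2, Scrn2, Mrpl10 and Lrrc46. The distal peaks, 9 in WT replicate 1 and 2 in Shh-/- replicate 2, were called in 1 library each. The highest of them, chr11:97058699-97058998, lay in an intron of Osbpl7 at the 58.6th percentile of WT replicate 1. The nearest to a TSS of Sp6 was chr11:97022063-97022401, in exons of Sp6 and of the overlapping Gm11532, at the 33.7th percentile of that list. The nearest peaks to the start of the shorter Sp6 transcript (position 97018733) were 3.33 and 40.6 kb away in the WT libraries and 40.5 and 7.22 kb away in the Shh-/- libraries.

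Dlx5 and Dlx6 are neighbouring homeobox genes that are transcribed towards each other and are needed in the ridge. The promoter of Dlx5, chr6:6881523-6882236, was called only in WT replicate 1, at rank 16670 and the 58.6th percentile. At Dlx6 a region at chr6:6863435-6864317, shared with the promoter window of Dlx6os2, was called in WT replicate 1 at the 20.5th percentile and in Shh-/- replicate 2 at the 21.3rd. A further peak just before the Dlx6 TSS, chr6:6862731-6862984, was called in Shh-/- replicate 2 alone, at the 12.8th percentile. Between the genes, chr6:6874299-6874805 was called in WT replicate 1 at the 63rd percentile, and 2 more WT replicate 1 peaks lay in introns of Dlx5, at percentiles of 44.7 and 8.24. WT replicate 2 and Shh-/- replicate 1 had no peak in either window. Their nearest peaks to the Dlx5 TSS were 73.8 kb and 876 kb away.

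Grhl3 encodes a grainyhead-like factor needed for the epidermal barrier. At its promoter WT replicate 1 had a peak over the TSS, chr4:135573362-135573791, at the 66.3rd percentile. WT replicate 2 had a different one 1.53 kb before the TSS, chr4:135575099-135575304, at the 20.1st percentile, and neither Shh-/- library had any. The intronic region printed above, chr4:135569795-135571130, has its summit 3.20 kb after the TSS. Its ranks were 7420 and 7187 in the WT libraries (81.2nd and 41.7th percentiles) and 13320 in Shh-/- replicate 2 (28.9th), and Shh-/- replicate 1 lacked it. WT replicate 2 had another intronic peak, chr4:135553248-135553527, that no other library had, at the 31.7th percentile.

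Tfap2a encodes AP-2 alpha, a factor of the surface ectoderm and neural crest, and its promoter was called in more libraries than any other of the set. The gene has 6 annotated TSSs between 40728944 and 40738376 on chromosome 13, minus strand, and 4 regions fell within 2 kb before to 1 kb after at least 1 of them. The region chr13:40730634-40732039 was called in both WT libraries, at ranks 10306 and 5057 (73.1st and 56.3rd percentiles), and as 2 peaks in Shh-/- replicate 2, the higher at rank 9913 (45.2nd). The WT replicate 2 peak (chr13:40731189-40731528) and the higher Shh-/- replicate 2 peak (chr13:40730784-40731083) do not overlap, and the WT replicate 1 peak spans both. A second region, chr13:40733416-40734562, was called in WT replicate 1 (66.3rd) and Shh-/- replicate 2 (28.9th). The remaining 2 were called in WT replicate 1 alone, both at the 33.7th percentile. Inside the gene, chr13:40722620-40723418 was called in the same 3 libraries, at percentiles of 85.4, 61.9 and 75.9. That region lies 5.96 kb after the nearest TSS of Tfap2a, in an intron, but within the promoter window of the unnamed gene model Gm47061, and was therefore not counted as distal. The only distal region of Tfap2a, chr13:40700554-40701167, was called in WT replicate 1 alone, at the 63rd percentile.

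**Figure D3:**
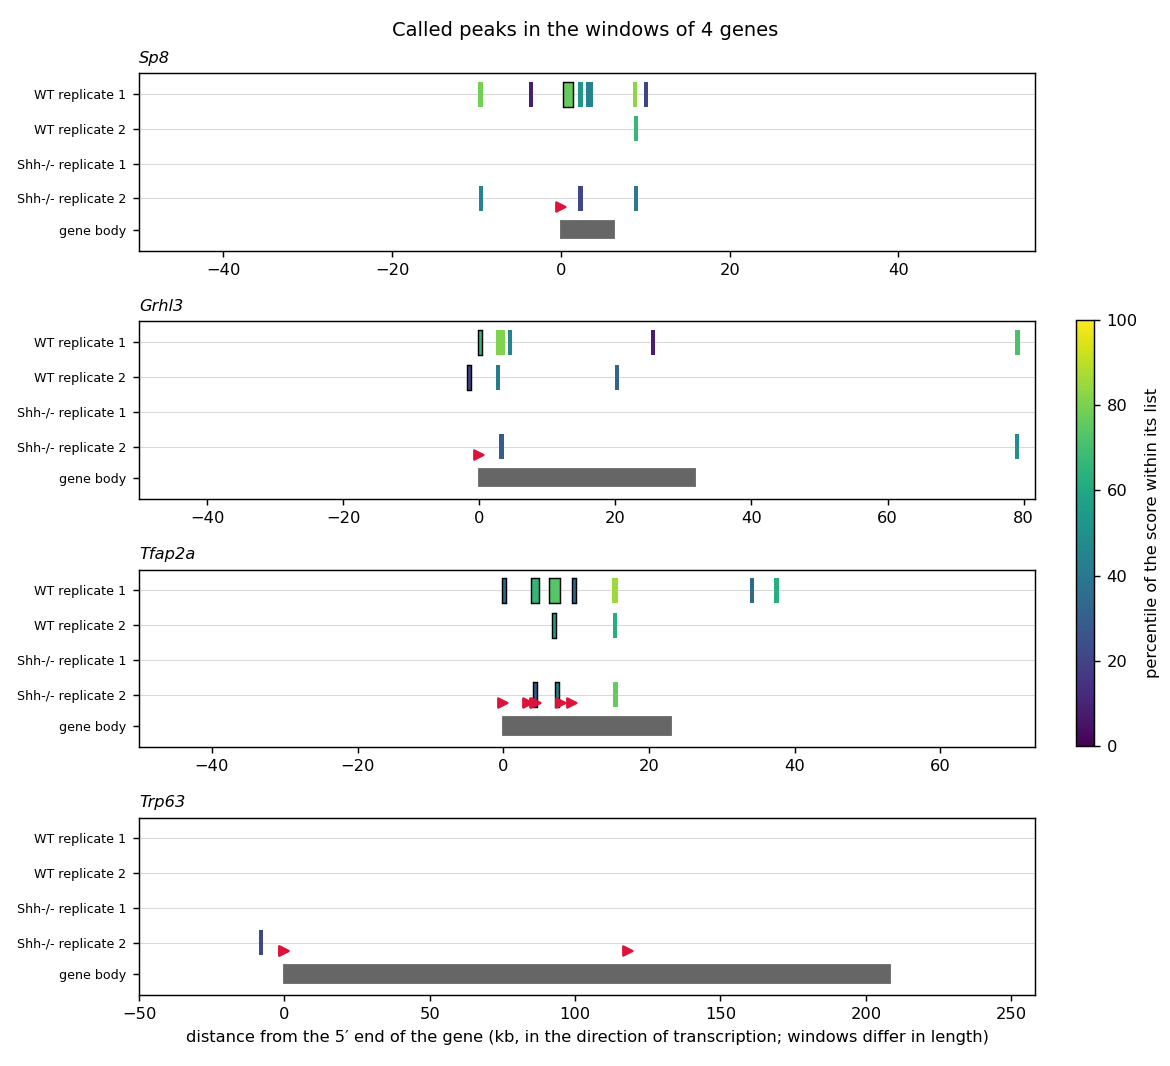
Called peaks in the windows of Sp8, Grhl3, Tfap2a and Trp63, by library (rows), against the distance from the 5′ end of the gene in kb in the direction of transcription. Colour gives the within-list percentile, black outlines mark own promoter regions, red arrowheads mark TSSs and grey bars the gene body. Where peaks are narrower than the plot can show they are drawn at a minimum width, and only the highest peak of a library is drawn in each region. Calls near Sp8, Grhl3 and Tfap2a fall in the same joined regions in up to 3 libraries, although the peaks within a region can be offset. The row of Shh-/- replicate 1 is empty, and Trp63 has a single peak.

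Epcam encodes an adhesion molecule found on most epithelial cells and not on mesenchyme. Its own promoter was called in Shh-/- replicate 2 alone, chr17:87636697-87636979, over an exon and at the 12.8th percentile, near the bottom of the list. The upstream region printed above, chr17:87613220-87613819, lies between genes 22.2 kb before the first TSS. Its ranks were 15988 and 9465 in the WT libraries (58.6th and 20.1st percentiles) and 15964 in Shh-/- replicate 2 (12.8th). Shh-/- replicate 1 had neither.

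Krt5 and Krt14 encode the paired keratins of basal epidermal cells, which become abundant as the epidermis stratifies. Neither promoter was called in any library, and all peaks in their windows came from WT replicate 1. Krt5 had 1 peak in an exon, chr15:101708868-101709088, that also falls in the promoter window of Gm44323, at the 33.7th percentile, and 1 in an intron of Krt74 at the 8.24th. Krt14 had 3 distal peaks, at distances of 39.4 kb after and 46.7 and 49.6 kb before its TSS. The last, chr11:100257026-100257284, lies in an intron of Krt17, another epithelial keratin gene, and was the highest at the 44.7th percentile. The nearest peak to the Krt14 TSS was 39.3 and 112 kb away in the WT libraries and 190 and 74.9 kb away in the Shh-/- libraries.

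Distal peaks were denser around the 10 genes than over the genome in the 3 libraries that had any. In WT replicate 1 there were 22.0 distal peaks per Mb of the joined windows and 8.31 per Mb of the genome. WT replicate 2 had 3.27 per Mb of the windows and 1.22 of the genome, Shh-/- replicate 1 had 0 and 0.752, and Shh-/- replicate 2 had 6.53 and 2.43. Windows around genes hold more distal peaks than the genome as a whole. Counted over single windows, all protein-coding genes had 17.8, 2.67, 1.08 and 4.0 distal peaks per Mb. On that count the 10 genes had 22.8, 3.04, 0 and 6.08. At least 1 distal peak was called for 9 of the 10 genes in WT replicate 1, where 55.4% of all genes had one. WT replicate 2 had 3 of 10 (23.1% of all genes), Shh-/- replicate 1 had 0 (12.1%) and Shh-/- replicate 2 had 5 (32.3%). Over the 4 lists together each of the 10 genes had at least 1, beside 59.1% of all genes. These peaks had median percentiles of 44.7 and 36.7 in the WT libraries and 21.3 in Shh-/- replicate 2, and the medians over all distal peaks of the lists were 33.7, 20.1 and 28.9.

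Most of these calls were seen in a single library. Of the 31 distal regions, 26 were called in 1 library, 2 in 2 libraries and 3 in 3 libraries. Thus 16.1% were called in at least 2 libraries, near the 17.0% of all distal regions. WT replicate 1 alone accounted for 22 of the 31, where its share over all distal regions was 66.6%. Of the 11 own promoter regions, 8 were called in 1 library, 2 in 2 and 1 in 3, so that 27.3% were called in at least 2 libraries, against 64.9% of all 17507 promoter regions. Of all 56 regions, 33 were called in WT replicate 1 alone, 6 in Shh-/- replicate 2 alone and 2 in WT replicate 2 alone. Over all 44692 regions these shares were 51.6%, 7.33% and 4.28%. At least 2 libraries called 26.8% of the 56 regions and 35.8% of all regions.

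The summits of the 31 distal regions lay between genes in 16, in introns of the 10 genes in 6, in exons of the 10 genes in 3, in introns of other genes in 5 and in an exon of another gene in 1. Thus 51.6% lay between genes, 35.5% in introns and 12.9% in exons, against 32.3%, 55.8% and 12.0% of all distal regions. Within 100 bp of the summit their median GC content was 53.5%, against 53% for all 27185 distal regions, with 5.0 CG dinucleotides against 3.0. The median width of the highest peak was 300 bp against 315 bp. The motif of the TFAP2 family, GCCNNNGGC, was found on either strand in 4 of the 31 regions (12.9%) and in 9.66% of all distal regions. Besides the Grhl3 intron printed above, the matches lay in another intronic region of Grhl3 (chr4:135547953-135548166), an intron of Dlx5 (chr6:6880058-6880379) and upstream of Krt14 (chr11:100254095-100254366). The grainyhead-like motif AACCNGTT had 1 match (3.23%, against 1.10%), in that other region of Grhl3. The p53-family motif ACATGTC, of the kind bound by p63, had 0 matches (1.95% of all distal regions), and the homeodomain motif TAATTA, of the kind bound by DLX factors, had 0 (5.66%). With 31 regions a single match is 3.23%, so these shares are given as a description.

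The same counts were made for lists of genes that mark other cells of the bud. All 10 limb mesenchyme genes, such as Prrx2, Msx1 and Lhx2, had an own promoter peak in WT replicate 1, and 6, 4 and 7 of 10 did in WT replicate 2, Shh-/- replicate 1 and Shh-/- replicate 2. Not every one of these genes was called each time, since Prrx2 had no promoter peak in either Shh-/- library. The ectodermal genes had 5, 2, 0 and 3 of 10, as given above. A further 18 ectoderm and epithelial genes, led in distal peaks by Itgb4, Krt8 and Rab25, had 12, 3, 0 and 5 of 18. A CpG-rich promoter was found for 6 of the 10 mesenchyme genes, 4 of the 10 ectodermal genes and 13 of these 18. How far promoter type entered these counts was not tested. Fgf8, the FGF of the ridge, and Wnt7a, of the dorsal ectoderm, had no own promoter peak in any library, nor had the epithelial genes Cdh1 and Grhl2; these 4 were picked out after their values were seen.

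The counts for other minority cells ranged widely around those of the ectodermal genes. Endothelial genes, such as Tie1, Cdh5 and Pecam1, had own promoter peaks in 1, 0, 0 and 1 of 6. Blood genes, such as Spi1, Tal1 and Runx1, had them in 4, 1, 0 and 2 of 6, and neural crest genes, led by Sox10 and Erbb3, in 3, 0, 0 and 0 of 4. The genes of migrating muscle progenitors, such as Pax3 and Lbx1, had 4, 2, 0 and 4 of 4. Genes of lineages that an E10.5 limb bud does not hold, such as Sftpc and Ins2, had 3, 1, 0 and 0 of 10. They do not set a floor, since the endothelial share was lower in both WT libraries (16.7% and 0%, against 30% and 10%).

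Distal peaks placed the ectodermal genes differently against the absent lineages by the measure used. In WT replicate 1 the density was 22.8 distal peaks per Mb of the single windows for the 10 ectodermal genes, 28.7 for the other epithelial genes, 37.8 for limb mesenchyme and 27.7 for the absent lineages, with 17.8 for all genes. In Shh-/- replicate 2 it was 6.08, 3.98, 15.5 and 6.06, with 4.0 for all genes. In the other two libraries the ectodermal genes had 3.04 and 0 per Mb and the absent lineages 3.46 and 1.73. By the share of genes with at least 1 distal peak, the ectodermal genes had 90%, 30%, 0% and 50% and the absent lineages 50%, 30%, 10% and 30%. By own promoters they had 50%, 20%, 0% and 30%, and the absent lineages 30%, 10%, 0% and 0%. The lists also differ in promoter type, with 4 CpG-rich genes of 10 among the ectodermal genes and 2 of 10 among the absent lineages, and the part of this in the promoter counts was not tested. These lists were small and were not tested.

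**Figure D4:**
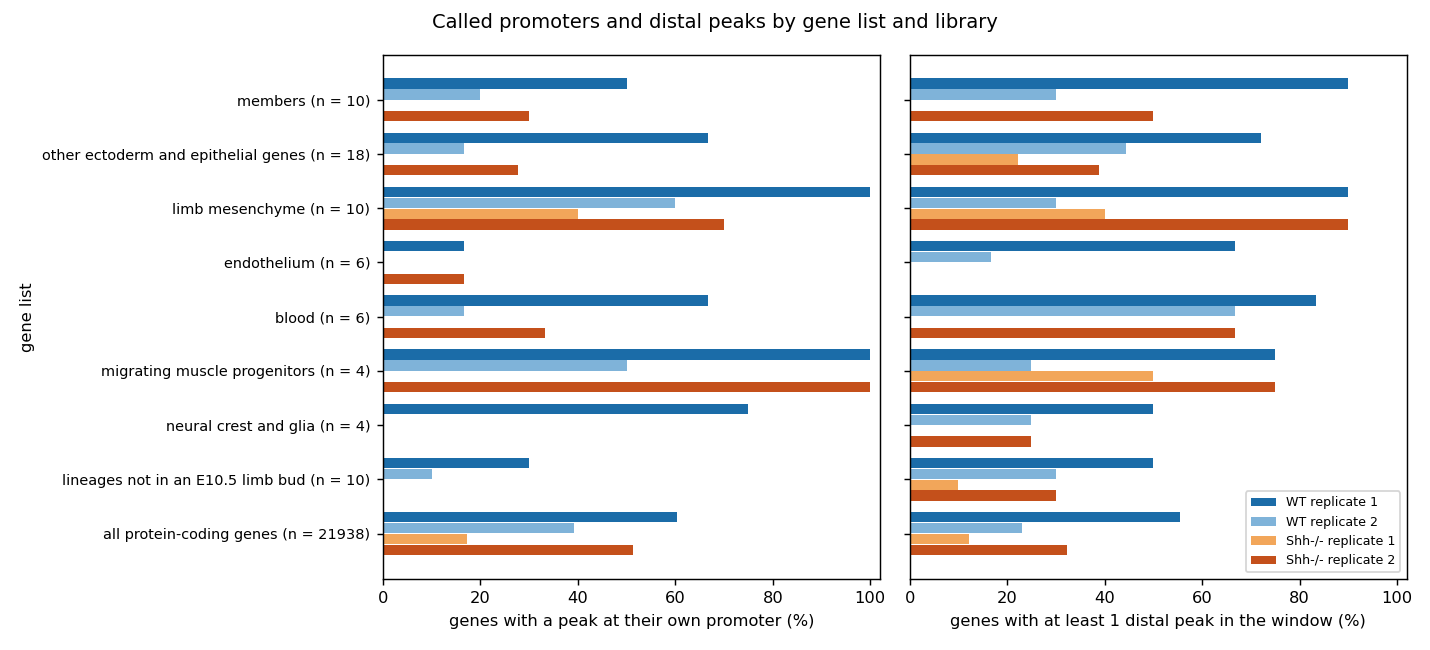
Share of the genes of each list with a peak at their own promoter (left) and with at least 1 distal peak in their window (right), in percent, by library, with n the number of genes in the list. The limb mesenchyme and muscle progenitor genes reach 100% at promoters in WT replicate 1, while the 10 ectodermal genes (members) stand at 50%, 20%, 0% and 30% in the 4 libraries.

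Between genotypes, the ectodermal genes did not differ beyond the spread between libraries. Peaks in the windows per 1000 peaks of the list averaged 0.990 ± 0.337 in WT and 0.775 ± 0.590 in Shh-/- (SD, n = 2 each), a difference of 0.215 (two-sided exact permutation test, p = 0.667). Distal peaks per 1000 averaged 0.512 ± 0.252 and 0.217 ± 0.306, a difference of 0.296 (exact permutation p = 0.667). The number of the 10 genes with an own promoter peak averaged 3.50 ± 2.12 and 1.5 ± 2.12, a difference of 2.00 (exact permutation p = 0.667). With 2 libraries against 2 the smallest p that this test can give is 0.33, so no difference could have passed. The groups overlapped in all 3 measures, with Shh-/- replicate 2 above WT replicate 2 in each. With peaks of a score of at least 50 only, the overlap ended for distal peaks per 1000, which were 0.408 and 0.179 in the WT libraries and 0 and 0.16 in the Shh-/- libraries (exact permutation p = 0.33, the smallest possible). These rest on 7, 1, 0 and 2 distal peaks.

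The difference in all peaks per 1000 rested on Shh-/- replicate 1. Without it the difference was -0.202, and without WT replicate 1 it was -0.0231, so that its direction turned in either case. Without Shh-/- replicate 1 the other differences were 0.0791 distal peaks per 1000 and 0.5 genes with a promoter peak. The median percentile of distal peaks was 44.7 and 36.7 in the WT libraries and 21.3 in Shh-/- replicate 2. Shh-/- replicate 1 had no distal peak to give a value, and this difference of 19.4 has no test. It shrank to 6.51 with scores of at least 50 and to 5.67 with windows of 100 kb.

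No region in the windows was called in both WT libraries and in neither Shh-/- library, and none was called in both Shh-/- libraries and in neither WT library. Over all regions the shares were 2.09% and 0.396%. The 5 regions called in both WT libraries and a single Shh-/- library were all called in Shh-/- replicate 2: the regions of Sp8, Grhl3 and Epcam printed above, the Tfap2a promoter and the Tfap2a intron. Over all regions, 5034 (11.3%) had this pattern with Shh-/- replicate 2 and 44 (0.0985%) had it with Shh-/- replicate 1.

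The length of the lists moved with these counts. When each list was limited to its 5589 highest scores, the length of the shortest, the windows held 2 and 4 peaks in the WT libraries and 2 and 3 in the Shh-/- libraries. Then an own promoter was called for 0, 1, 0 and 0 of the 10 genes, beside 25.5%, 25.4%, 17.3% and 25.2% of all protein-coding genes. The 1 gene was Tfap2a. A distal peak was called for 0, 1, 0 and 0 of the 10, beside 5.48%, 5.04%, 12.1% and 4.82% of all genes, and was the downstream region of Sp8. The other peaks were promoters of neighbouring genes and the region at Gm47061 in the Tfap2a intron. With 10 genes such counts are small.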

How the data were processed

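ATAC-seq uses the Tn5 transposase to place sequencing adapters in open DNA. It was run on 4 libraries of posterior forelimb buds, whose titles give genotype and replicate. Libraries were amplified for 18 cycles of PCR and sequenced as paired ends. The submitters' processing notes name Bowtie2 2.2.5, MACS2 2.1.0 and mm10, and the study's methods give a cutoff on q of 0.05 and a 200 bp window of fixed size. Read filters and any shift of reads for Tn5 are not given in the sources used here. The authors deposited 1 peak list per library, not pooled, and each peak carries a score. By the caller's format this score is 10 times the highest −log10 q in the peak, which the files do not state, so it was used only to order peaks within a list. The lists hold no counts. The study states a common target depth for its sequencing, but the reads behind each list are not given in the files, and the study's limma fit to signal was not repeated. Scores are heavily tied (106 to 252 distinct values per list).

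Genes and TSSs were taken from GENCODE M21 (basic set). Peaks of different lists sharing at least 1 bp were joined as regions. A promoter was called CpG-rich when the 250 bp before to 50 bp after a TSS had a GC content of at least 50% and an observed to expected CpG ratio of at least 0.6. Sequences were read from GRCm38 (RefSeq). Genotypes were compared over libraries by two-sided exact permutation tests. Python 3.11.15, numpy 2.4.6, pysam 0.24.0, samtools 1.23.1 and matplotlib 3.10.9 were used, and the scripts were tested on simulated data. Per the labels the libraries are separate replicates, and per the study's methods each is a separate embryo.

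All 10 genes were named, each with its own promoter regions and the distal region called in most libraries, and further distal regions were added after their values were seen. Of each comparison list at most 3 genes were named, those with most distal peaks. The 4 genes said to be picked afterwards are exceptions, and a few genes that this rule would name are not reported here. The genes and lists were chosen with earlier results of these data known. Alternatives tried were equal list size, a minimum score of 50, windows of 10 and 100 kb, peak summits in place of overlaps, a promoter window of 500 bp, promoters of neighbours left out, summits within 250 bp, the replicate block and each library left out.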

Additional observations from a re-analysis of the deposited data

How the results depend on the processing

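The difference in member peaks per 1000 (0.215) turned its direction without WT replicate 1 (-0.0231) and without Shh-/- replicate 1 (-0.202), and leaving out each library in turn gave -0.202 to 0.632. The same gave 0.0791 to 0.512 for distal peaks per 1000, 0.5 to 3.50 for genes with an own promoter peak and 15.4 to 23.4 for the median percentile of distal peaks, with no value without Shh-/- replicate 2. The last difference (19.4) fell to 6.51 with scores of at least 50 and to 5.67 with windows of 100 kb, and the cause was not tested. With 1 library left in a group these are values with no test. The count of regions called in both WT libraries and no Shh-/- library (0) ranged from 0 to 33 when a library was left out, with 33 without WT replicate 2, 5 without Shh-/- replicate 2 and 2 without WT replicate 1. The reverse count (0) ranged from 0 to 6, with 6 without Shh-/- replicate 1. These counts then rest on a single library of a genotype, so they follow from the construction. With windows of 100 kb, 1 region was called in both WT libraries and no Shh-/- library, chr17:87570769-87571076 at a gene model far upstream of Epcam (AC122818.2), at percentiles of 33.7 and 8.95. Under the other settings that could be run the 3 tested differences kept their direction with p of 0.33 to 1.0, the lowest for distal peaks with scores of at least 50, though at equal list size they were as small as 0.0895, 0.0895 and 0.5. At equal list size the median percentile of distal peaks had no value.

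The labels number the replicates, but nothing says that equal numbers share a litter or day. The deviations in calls of same-numbered libraries had a correlation of 0.245 over 44692 regions. Regions are not separate replicates of a litter or day, so this value cannot show whether equal numbers share one. With the replicate number as a block, the differences stayed 0.215, 0.296 and 2, each with exact p = 1.0, where the smallest possible is 0.5. The median percentile could not be blocked, since the first pair has no value. The number of reads behind each list is not in the files, and this limits all counts here.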
